A study of Mus musculus with 3 samples.

Results

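Lcn2, Serpina3n, Steap4, Cp and Ptx3 are 5 genes of the acute-phase response that are often read as markers of reactive astrocytes. They were taken by symbol from the list of 55357 genes that the 3 single-cell matrices share, and all 5 of the 5 symbols were found. Their levels were followed in mouse brain after traumatic brain injury (TBI), across cell types, over the clusters of astrocytes and over single astrocytes. The 3 libraries came from TBI+IL-25 mice (injury, then interleukin-25), TBI+PBS mice (injury, then phosphate-buffered saline) and sham mice, with 1 library per group. All groups were male C57BL/6 mice aged 6 to 8 weeks, and the tissue lay beside the lesion in the left hemisphere. The interleukin-25 dose was 1 µg per mouse, first given no later than 30 minutes from the injury and repeated daily over 3 days. PBS was likewise given over 3 days, and the labels name no treatment for sham mice. How the injury was made and how many animals entered a library are not given in the sources used here.

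Acute-phase proteins are made in large amounts, mainly by the liver, when interleukin-6 and interleukin-1 signal inflammation, and STAT3, NF-kB and C/EBP factors carry that signal to their genes. Astrocytes turn on part of the same programme when they become reactive. Lcn2 encodes lipocalin-2, a secreted protein that binds iron-carrying siderophores and withholds iron from bacteria. Serpina3n encodes a secreted inhibitor of serine proteases, a mouse relative of human alpha-1-antichymotrypsin. Ptx3 encodes pentraxin-3, a secreted long pentraxin that recognises microbes and binds complement components. Cp encodes ceruloplasmin, the copper-carrying ferroxidase that oxidises iron for export, which is made in a plasma form and in a membrane-anchored form known from astrocytes. Steap4 encodes a metalloreductase of iron and copper that stays in cell membranes, so the set is not made of secreted proteins alone.

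The sequences upstream of the start sites are shown because each of these genes was low or absent in sham astrocyte-like cells and higher in both injured libraries. RefSeq, with the build GRCm38.p6, lists start sites for all 5 genes, and 1 site is listed for each gene except Cp, which has 2. Each line below gives the 250 bases before the start, read 5′ to 3′ in the direction of transcription: Lcn2 from chr2:32387740-32387989 on the minus strand, Serpina3n from chr12:104406458-104406707, Steap4 from chr5:7960222-7960471 and Ptx3 from chr3:66219637-66219886, the last 3 on the plus strand. Capitals mark matches to any of 4 motifs searched on both strands, a STAT motif (TTCNNNGAA), an NF-kB motif (GGGANNTTCC), a C/EBP motif (TTGCNNAA) and a TATA box (TATAAA).
Lcn2: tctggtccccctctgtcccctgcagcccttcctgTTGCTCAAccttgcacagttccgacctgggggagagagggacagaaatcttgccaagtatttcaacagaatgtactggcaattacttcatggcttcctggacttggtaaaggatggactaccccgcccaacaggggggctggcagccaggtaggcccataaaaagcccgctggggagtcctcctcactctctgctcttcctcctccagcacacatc
Serpina3n: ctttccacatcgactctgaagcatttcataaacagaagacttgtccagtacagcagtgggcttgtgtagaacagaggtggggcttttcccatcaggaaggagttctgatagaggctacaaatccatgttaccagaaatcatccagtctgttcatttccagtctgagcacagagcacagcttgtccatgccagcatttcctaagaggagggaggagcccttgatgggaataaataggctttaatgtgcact
Steap4: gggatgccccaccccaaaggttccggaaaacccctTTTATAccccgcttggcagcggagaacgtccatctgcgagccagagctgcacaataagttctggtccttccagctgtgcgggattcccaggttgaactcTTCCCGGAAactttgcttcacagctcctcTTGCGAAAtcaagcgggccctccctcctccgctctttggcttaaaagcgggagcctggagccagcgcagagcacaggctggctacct
Ptx3: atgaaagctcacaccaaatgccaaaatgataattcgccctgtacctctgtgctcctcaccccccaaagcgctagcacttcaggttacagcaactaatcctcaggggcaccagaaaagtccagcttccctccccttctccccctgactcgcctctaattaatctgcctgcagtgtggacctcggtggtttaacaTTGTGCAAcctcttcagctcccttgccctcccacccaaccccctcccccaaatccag

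A C/EBP match lay 216 bases before the start of Lcn2, 87 before that of Steap4 and 57 before that of Ptx3. Steap4 also held a STAT match 116 bases before its start and a TATA match in reverse orientation 215 bases before it. Cp held a C/EBP match 70 bases before the second of its start sites and TATA letters on both strands, which overlap, 25 to 27 bases before it. Serpina3n held none of the 4 motifs, nor did the first start site of Cp, and no NF-kB match lay in any of these windows. Of 32851 upstream windows of 250 bases in the same table, 9.56% held the C/EBP motif, 7.02% the STAT motif, 1.21% the NF-kB motif and 12.4% the TATA motif. A match is a run of letters and not a shown binding site, and a window without a match says nothing of the factor.

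The libraries held 61372408 unique molecular identifiers (UMIs, counts of captured RNA molecules) over 14222 barcodes in TBI+IL-25, 58148289 over 10643 in TBI+PBS and 39536447 over 8939 in sham. After filters, 13515, 10309 and 8692 cells remained, with a median of 3839, 4664 and 4110 UMIs. Joint clustering without the 5 genes gave 31 clusters and 12 named cell classes, and 9 clusters with all 10 astrocyte markers formed the astrocyte-like class of 6665 TBI+IL-25, 4511 TBI+PBS and 3227 sham cells. Levels are in CPM, where the UMIs of a gene in a class are divided by all UMIs of that class and scaled to 1000000, with exact 95% Poisson intervals. Intervals cover counting error only, and with 1 library per group no difference has a replicate check, so each compares libraries and not conditions.

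Other measures moved with the libraries and stand beside every result on astrocyte-like cells. Summed astrocyte markers were 22687, 20810 and 20597 CPM in TBI+IL-25, TBI+PBS and sham, none of the 10 at 0. Summed microglia markers were 819, 1498 and 1111 CPM there, and 16 immediate early genes that also answer to tissue dissociation summed to 6873, 4124 and 1140 CPM. Neutrophil markers, of interest because neutrophils store lipocalin-2, summed to 9.65, 9.82 and 4.43 CPM, with 2, 2 and 4 of the 8 at 0. The median depth of astrocyte-like cells was 2950, 4326 and 4470 UMIs. The TBI+IL-25 library stood apart in ribosomal RNA, with 1.04% of astrocyte-like UMIs against 0.0469% in TBI+PBS and 0.0457% in sham, and the file headers name another software version for it, so these differences and the treatment cannot be told apart. The libraries shared 24 to 39 cell barcodes in each pair, at most 0.368% of a library. The part of these measures in the results below was not tested.

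All 5 genes were higher in TBI+PBS than in sham astrocyte-like cells. Lcn2 had 87.8 CPM (83.8 to 91.8) in TBI+IL-25, 230 CPM (223 to 237) in TBI+PBS and 0 UMIs among the 14229847 of sham astrocyte-like cells, which allows up to 0.211 CPM. Both injured libraries thus lay far above sham, with TBI+PBS the highest. Against that limit, Lcn2 was at least 1091-fold higher in TBI+PBS than in sham and at least 416-fold higher in TBI+IL-25 than in sham. In TBI+IL-25 it was 0.382-fold of TBI+PBS (0.362 to 0.403).

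Serpina3n had 236 CPM (229 to 242) in TBI+IL-25, 205 CPM (199 to 211) in TBI+PBS and 5.62 CPM (4.46 to 7.0) in sham. It was the gene with the smallest gap between the injured libraries. It was 36.5-fold higher in TBI+PBS than in sham (29.2 to 46.1), and in TBI+IL-25 it was 1.15-fold of TBI+PBS (1.10 to 1.20). With each cell weighed equally, the first of these ratios was 26.7. In the clusters that all 3 libraries share, the second turned its direction, to 0.491.

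Ptx3 had 600 CPM (590 to 611) in TBI+IL-25, 311 CPM (303 to 318) in TBI+PBS and 3.37 CPM (2.49 to 4.47) in sham. Over the whole class TBI+IL-25 was here the highest library, the reverse of Lcn2, but within clusters 15 and 6, given below, it was lower than TBI+PBS. Ptx3 was 92.1-fold higher in TBI+PBS than in sham (69.4 to 125), and in TBI+IL-25 it was 1.93-fold of TBI+PBS (1.87 to 1.99).

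Steap4 had 5.38 CPM (4.45 to 6.46) in TBI+IL-25, 12.7 CPM (11.2 to 14.3) in TBI+PBS and 0 UMIs in sham, which again allows 0.211 CPM. It followed the order of Lcn2, at least 60.2-fold higher in TBI+PBS than in sham and 0.424-fold of TBI+PBS in TBI+IL-25 (0.338 to 0.529). Cp was hardly detected in astrocyte-like cells, with 32 UMIs (1.49 CPM) in TBI+IL-25, 71 UMIs (3.40 CPM) in TBI+PBS and 3 UMIs (0.211 CPM) in sham. Its ratio was 16.1 for TBI+PBS over sham, with an interval of 5.30 to 80.1 set by the 3 sham counts, or 6.85 with each cell weighed equally, and 0.437 for TBI+IL-25 over TBI+PBS (0.278 to 0.672).

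**Figure D1:**
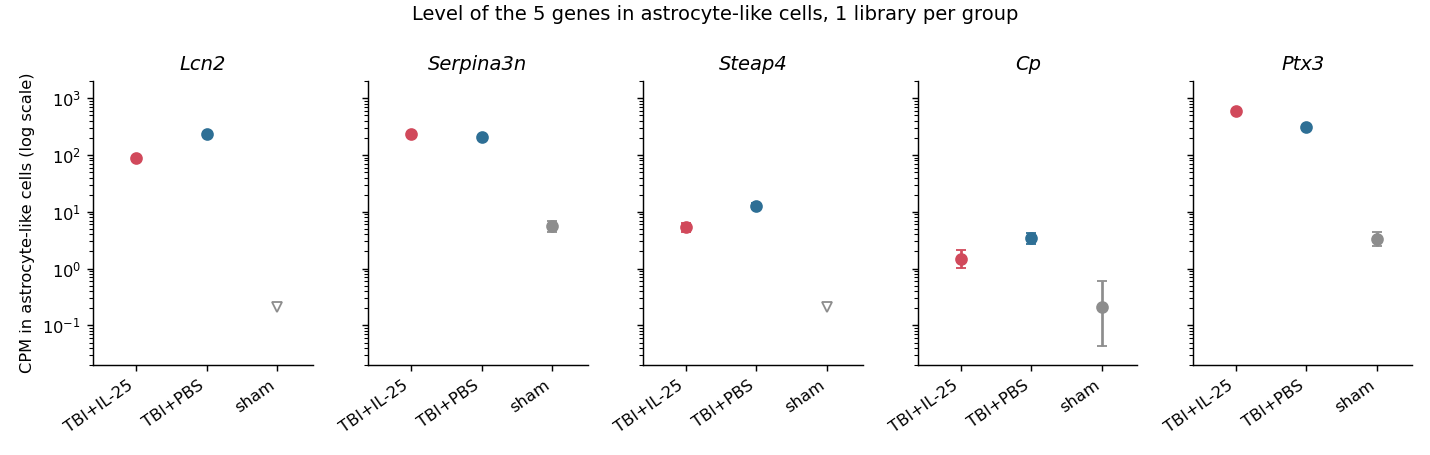
Level of each gene in astrocyte-like cells in CPM on a log scale, by library, with exact 95% Poisson intervals for counting error only; open triangles mark the limit that 0 UMIs allow. Lcn2 and Steap4 are highest in TBI+PBS and at 0 in sham, while Ptx3 is highest in TBI+IL-25 at 600 CPM.

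Among genes with at least 50 UMIs over both libraries, 6.78% of 14354 were higher in TBI+PBS than in sham by 2-fold or more, and 4.38% were lower by as much. All 5 of the 5 genes were among the higher ones. Between TBI+IL-25 and TBI+PBS, 3.70% of 14502 genes were higher and 10.4% were lower, and the set split: Lcn2, Steap4 and Cp were lower past 2-fold, while Serpina3n and Ptx3 lay within it. Between TBI+IL-25 and sham, 11.3% of 14198 genes were higher and 20.5% lower. The 4 genes with enough UMIs for that comparison were all higher, at 41.9-fold for Serpina3n and 178-fold for Ptx3, and Cp was below the count minimum. The median log2 ratio over all genes was -0.20 for TBI+IL-25 over TBI+PBS and -0.032 for TBI+PBS over sham. Scaling by median-of-ratios size factors adds 0.24 and 0.053 to every gene. The first shift changes the split, since Ptx3 was at a log2 ratio of 0.95, Cp at -1.20 and Steap4 at -1.24 by CPM. With size factors Ptx3 passed 2-fold, Cp lay within it and Steap4 lay about at the line, while Lcn2 and Serpina3n kept their calls. The 3 comparisons share libraries, so their results are not independent.

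Across the other cell classes the genes parted, as the map of classes and libraries shows. Of all Ptx3 UMIs, astrocyte-like cells held 98.1% in TBI+IL-25, 98.4% in TBI+PBS and 65.8% in sham. They held 80.3% and 87.7% of Lcn2, 73.3% and 82.4% of Serpina3n and 78.9% and 85.5% of Steap4 in TBI+IL-25 and TBI+PBS. For Cp the figures were 8.70% in TBI+IL-25, 13.5% in TBI+PBS and 3.12% in sham, so by its UMIs Cp was not an astrocyte gene in these libraries.

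**Figure D2:**
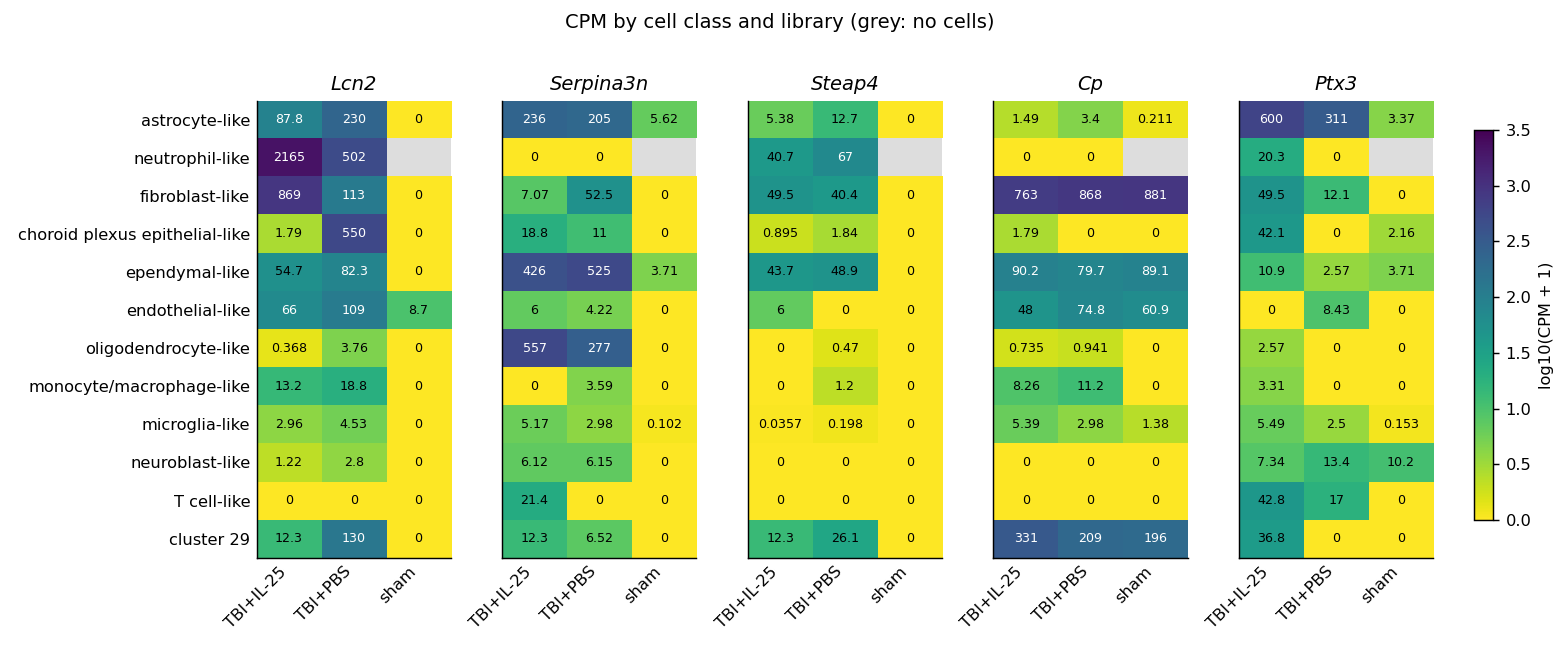
CPM of each gene by cell class (rows) and library (columns), printed in each field and coloured by log10(CPM + 1); grey fields hold no cells. Cp keeps similar levels in fibroblast-like cells of all 3 libraries, 763, 868 and 881 CPM, whereas the other genes reach no more than 10.2 CPM in any sham class.

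Lcn2 was high in neutrophil-like cells, which store lipocalin-2 in their granules, and in TBI+IL-25 no other class was as high. These had 2165 CPM (1884 to 2476, 45 cells) in TBI+IL-25 and 502 CPM (281 to 828, 12 cells) in TBI+PBS, and no sham cell fell in the class. In TBI+PBS 1 neutrophil-like cell held 11 of the 15 UMIs. Fibroblast-like cells had 869 CPM (723 to 1037, 25 cells) in TBI+IL-25, 113 CPM (75.1 to 163, 23 cells) in TBI+PBS and 0 UMIs in 7 sham cells. In both classes the order of the injured libraries was thus the reverse of that in astrocyte-like cells. In TBI+PBS choroid plexus epithelial-like cells, at 550 CPM (489 to 616), and neutrophil-like cells had the highest levels, with overlapping intervals, and fibroblast-like cells lay below astrocyte-like cells. In TBI+IL-25, 7 of the 25 fibroblast-like cells carried Lcn2, and 1 cell held 57 of the 123 UMIs. The 0 UMIs of the few sham cells allow up to 91.2 CPM, so a difference between TBI+PBS and sham was not detectable in fibroblast-like cells.

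Choroid plexus epithelial-like cells, which secrete cerebrospinal fluid, had 1.79 CPM of Lcn2 in TBI+IL-25, 550 CPM in TBI+PBS and 0 UMIs in sham. In TBI+PBS 19 of the 68 cells carried it, with up to 130 UMIs in a cell, against 2 of 117 cells in TBI+IL-25. The ratio of TBI+IL-25 over TBI+PBS, 0.00325 (3.92e-04 to 0.0119), rests on 2 UMIs in TBI+IL-25. Endothelial-like cells had 66.0 CPM (33.0 to 118) in TBI+IL-25, 109 CPM (88.6 to 132) in TBI+PBS and 8.70 CPM in sham. That last level is a single UMI, the only Lcn2 UMI among all sham cells. The intervals of the endothelial-like levels overlap between the injured libraries, and 63 of the 103 TBI+PBS UMIs came from 1 cell. In ependymal-like cells of TBI+PBS, all 32 Lcn2 UMIs came from 1 cell. Microglia-like cells, the other large class, had 2.96 CPM of Lcn2 in TBI+IL-25, 4.53 CPM in TBI+PBS and 0 UMIs in sham.

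Serpina3n was shared by several glial classes. Oligodendrocyte-like cells, the myelin-forming glia, had 557 CPM (530 to 586) in TBI+IL-25, 277 CPM (255 to 300) in TBI+PBS and 0 UMIs in 45 sham cells. It was found in 271 of 631 and 72 of 213 of these cells in TBI+IL-25 and TBI+PBS. The level of TBI+IL-25 was 2.01-fold that of TBI+PBS (1.83 to 2.22). Ependymal-like cells, which line the ventricles, had 426 CPM (362 to 499) in TBI+IL-25, 525 CPM (455 to 602) in TBI+PBS and 3.71 CPM, a single UMI, in sham, and the 2 injured libraries' intervals overlap. In TBI+IL-25 the order of levels was oligodendrocyte-like, ependymal-like and astrocyte-like, and in TBI+PBS ependymal-like, oligodendrocyte-like and astrocyte-like, with intervals that do not overlap between neighbours in either library.

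Steap4 was at 0 UMIs in every sham class. In injured libraries, outside astrocyte-like cells, most of its UMIs came from ependymal-like cells, with 43.7 CPM (25 to 71.0) in TBI+IL-25 and 48.9 CPM (29.4 to 76.3) in TBI+PBS, and fibroblast-like cells, with 49.5 CPM (19.9 to 102) and 40.4 CPM (19.4 to 74.2). These levels do not differ beyond their counting error, between classes or libraries, and rest on 7 to 19 UMIs each. Neutrophil-like cells, with 40.7 CPM (11.1 to 104) in TBI+IL-25 and 67.0 CPM (8.11 to 242) in TBI+PBS, rest on 4 and 2 UMIs, and cluster 29, led by the mural cell genes Vtn, Rgs5 and Acta2, on 1 and 4 UMIs (12.3 and 26.1 CPM). Microglia-like cells held 1 and 5 UMIs of Steap4 in TBI+IL-25 and TBI+PBS.

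Cp was found in fibroblast-like, cluster 29, endothelial-like and ependymal-like cells with and without injury. Fibroblast-like cells had 763 CPM (626 to 922) in TBI+IL-25, 868 CPM (756 to 992) in TBI+PBS and 881 CPM (590 to 1266) in sham. Cluster 29, which no class name was given to, had 331, 209 and 196 CPM, ependymal-like cells 90.2, 79.7 and 89.1 CPM and endothelial-like cells 48.0, 74.8 and 60.9 CPM in TBI+IL-25, TBI+PBS and sham. In each of these 4 groups the intervals of all 3 libraries overlap.

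Microglia-like cells differed from that pattern, with 5.39 CPM of Cp (4.56 to 6.32) in TBI+IL-25, 2.98 CPM (2.34 to 3.73) in TBI+PBS and 1.38 CPM (0.909 to 2.01) in sham. These intervals do not overlap, and the ratios were 1.81 for TBI+IL-25 over TBI+PBS (1.36 to 2.42) and 2.16 for TBI+PBS over sham (1.37 to 3.49). The microglia-like cells of the 3 libraries lay in different clusters, and the order did not hold within those with most sham cells: in cluster 0 Cp was at 0 UMIs in 52 TBI+IL-25 cells, 0.754 CPM in TBI+PBS and 1.24 CPM in sham, and in cluster 4 at 5.31 CPM (a single UMI), 0.688 CPM and 0.829 CPM. Microglia-like cluster 9, led by Spp1, Ccl4 and Lpl, had 10.4 CPM in TBI+IL-25 and 9.27 CPM in TBI+PBS, where 1 cell held 19 of its 49 UMIs. In microglia-like cluster 3, filled by both injured libraries, Cp was at 5.19 CPM in TBI+IL-25, 0.875 CPM (0.352 to 1.80) in TBI+PBS and 10.0 CPM (2.73 to 25.6, 4 UMIs in 70 cells) in sham, so TBI+PBS was lower than sham there.

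Ptx3 had a low level in neuroblast-like cells of every library, 7.34 CPM (2.69 to 16.0) in TBI+IL-25, 13.4 CPM (8.60 to 20) in TBI+PBS and 10.2 CPM (6.21 to 15.7) in sham. In sham these 249 cells held 20 of the 73 Ptx3 UMIs, beside 48 in astrocyte-like cells, and sham neuroblast-like cells lay above sham astrocyte-like cells. Choroid plexus epithelial-like cells had 42.1 CPM of Ptx3 in TBI+IL-25, from 12 of 117 cells, 0 UMIs in TBI+PBS and 2.16 CPM, a single UMI, in sham.

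Within the astrocyte-like class the genes were concentrated in cluster 15, led by Tm4sf1, Gfap, Slc5a3, Mt2 and Cxcl10, many of them reactive astrocyte genes. Its 403 TBI+IL-25 and 292 TBI+PBS cells made up 6.05% and 6.47% of their libraries' astrocyte-like cells, and sham had 1 such cell. These cells held 79.5% and 77.8% of the astrocyte-like Lcn2 UMIs of TBI+IL-25 and TBI+PBS, and 82.8% and 81.5% of Steap4. For Serpina3n the shares were 42.2% and 59.4%, for Cp 56.2% and 73.2%, and for Ptx3 22.0% and 71.9%. Clusters were formed without the 5 genes but with other genes of the same cells, so these figures describe the clusters and test nothing.

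In cluster 15 the shares of cells with a UMI were 29.5% in TBI+IL-25 and 56.8% in TBI+PBS for Lcn2, 84.4% and 89.7% for Serpina3n, 75.2% and 80.1% for Ptx3 and 13.9% and 30.5% for Steap4, at median depths of 4265 and 7472 UMIs. Lcn2 was at 775 CPM in TBI+IL-25 and 1577 CPM in TBI+PBS, a ratio of 0.492 (0.463 to 0.522). Steap4 was at 49.5 and 91.3 CPM there, a ratio of 0.542 (0.422 to 0.693). Cp was at 9.28 CPM (5.50 to 14.7) in TBI+IL-25 and 22.0 CPM (16.4 to 28.8) in TBI+PBS. Serpina3n did not differ beyond counting error, at 1106 and 1075 CPM (ratio 1.03, 0.971 to 1.09). Ptx3 was lower in TBI+IL-25, at 1469 against 1970 CPM (ratio 0.746, 0.711 to 0.781), the reverse of its order over the whole class.

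**Figure D3:**
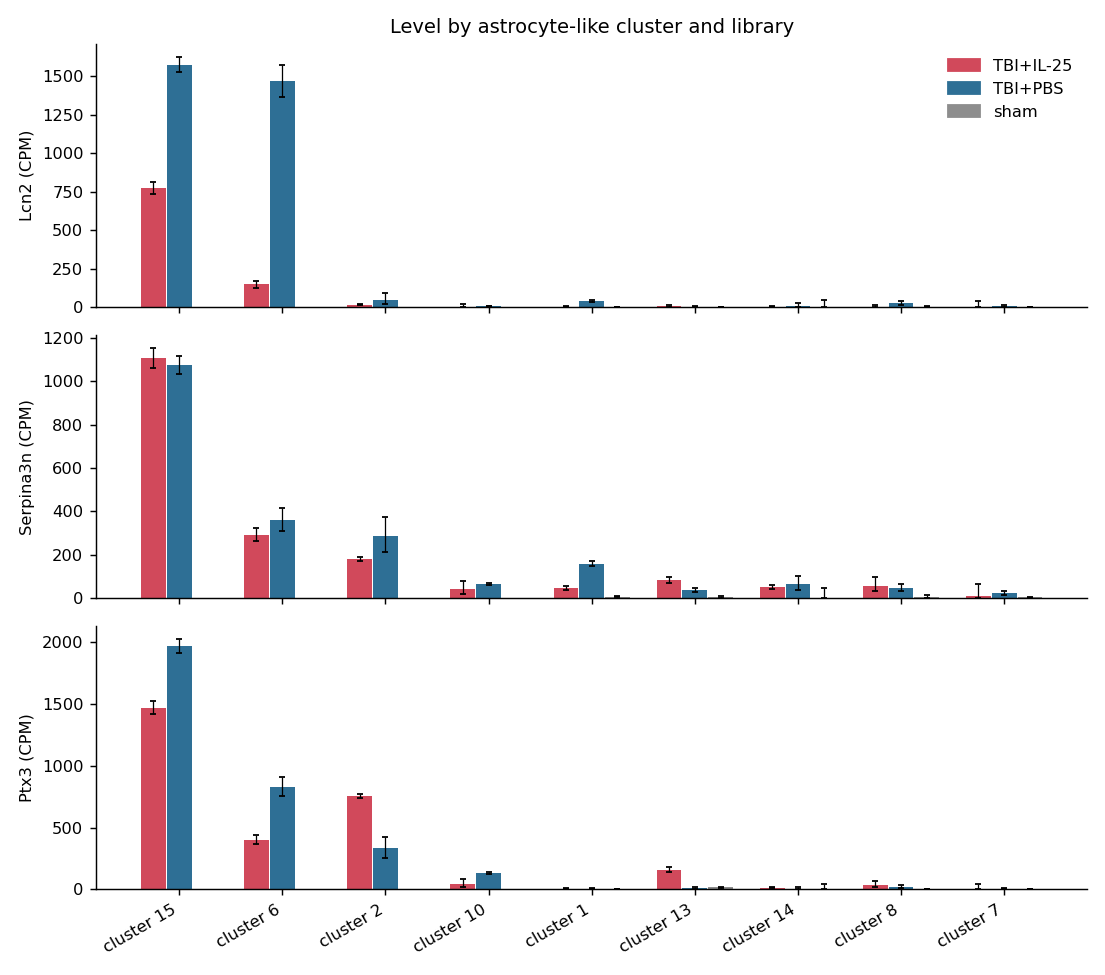
CPM of Lcn2, Serpina3n and Ptx3 by astrocyte-like cluster and library, with exact 95% Poisson intervals; a bar is drawn only where a library has at least 10 cells. Lcn2 is highest in clusters 15 and 6, whereas Ptx3 reaches 758 CPM in cluster 2 of TBI+IL-25, where Lcn2 is at 15.2 CPM.

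Ptx3 and Lcn2 parted in cluster 2, led by F3, Slc5a3, S100a10 and Hbegf, which held 41.2% of the astrocyte-like cells of TBI+IL-25 and 0.909% of those of TBI+PBS. Ptx3 was at 758 CPM in its 2743 TBI+IL-25 cells and 334 CPM (256 to 428) in its 41 TBI+PBS cells, and the TBI+IL-25 cells carried 71.9% of the Ptx3 UMIs of their class. Lcn2 was at 15.2 and 48.5 CPM in these cells, and Steap4 at 0.0815 and 10.8 CPM. The largest cluster of TBI+PBS was cluster 10 (29.4%), with 131 CPM of Ptx3 and 5.88 CPM of Lcn2. The largest of sham was cluster 7 (42.5%), with 2.52 CPM of Ptx3 and none of Lcn2. Since each library filled a different main cluster, a cluster here may stand for a library as much as for a cell state.

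Without cluster 15, Ptx3 in TBI+IL-25 was 5.22-fold of TBI+PBS and Serpina3n 1.59-fold, while Lcn2 was 0.343-fold. The ratios of TBI+PBS over sham were then at least 273 for Lcn2, at least 12.6 for Steap4, 16.7 for Serpina3n, 4.87 for Cp and 29.2 for Ptx3. In clusters 1, 8 and 13 alone, the ones with at least 200 cells in every library, the ratio of TBI+PBS over sham was at least 60 for Lcn2, at least 3.22 for Steap4, 17.6 for Serpina3n, 2.05 for Cp and 2.09 for Ptx3. For TBI+IL-25 over TBI+PBS these shared clusters gave 0.140 for Lcn2, 0.491 for Serpina3n, which turned its direction, and 6.99 for Ptx3. Steap4 and Cp, at 0.153 and 0.241, rest on 1 UMI each in TBI+IL-25 there.

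The shared clusters did not behave alike. In cluster 1, led by Agt, Slc6a11 and Slc7a10, Serpina3n was at 45.9 CPM in TBI+IL-25, 160 CPM in TBI+PBS and 8.24 CPM in sham, and Lcn2 at 3.28, 39.0 and 0 CPM. Ptx3 was at 5.15, 6.49 and 0.549 CPM there. In cluster 13, led by Crym, Ptx3 was at 158 CPM in TBI+IL-25, 12.6 CPM in TBI+PBS and 16.1 CPM in sham. TBI+IL-25 was 12.5-fold of TBI+PBS in that cluster (7.44 to 22.7), and TBI+PBS was 0.784-fold of sham, with an interval (0.383 to 1.56) that includes 1. Serpina3n in cluster 13 was at 84.3, 37.0 and 4.69 CPM, so TBI+IL-25 was higher than TBI+PBS there (2.28-fold, 1.61 to 3.29) and lower in cluster 1. Cluster 6, a shallow cluster with a median of 788 and 1015 UMIs, had 148 CPM of Lcn2 in TBI+IL-25 and 1467 CPM in TBI+PBS, a ratio of 0.101 (0.0852 to 0.118). Ptx3 was at 403 CPM in TBI+IL-25 and 827 CPM in TBI+PBS there, a ratio of 0.487 (0.428 to 0.555). Left without its shallow clusters 6 and 8, the class gave an Lcn2 ratio of 0.418 for TBI+IL-25 over TBI+PBS.

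Over single astrocyte-like cells, each gene was carried by a minority. Lcn2 was found in 3.35% of cells in TBI+IL-25, 7.94% in TBI+PBS and 0 of 3227 in sham, which allows a share of up to 0.0930% of cells with a UMI. Serpina3n was found in 25.8%, 19.4% and 2.26%, and Ptx3 in 34.9%, 16.8% and 1.36%. Steap4 was found in 1.04%, 2.84% and 0%, and Cp in 0.450%, 0.754% and 0.0930%. With every cell thinned to 1000 UMIs, which left out 1235, 658 and 444 shallower cells, the shares were 2.27%, 4.96% and 0% for Lcn2, 13.5%, 9.84% and 0.467% for Serpina3n and 24.1%, 9.58% and 0.503% for Ptx3. The order of the libraries was unchanged by thinning for these 3 genes.

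Microglia-like cells, the other large class, were set beside them, since free RNA can put UMIs into any cell. Single microglia-like cells held up to 10 UMIs of Lcn2 (cluster 9, TBI+PBS) and 6 of Ptx3 (cluster 20, TBI+IL-25). Ptx3 in TBI+IL-25 was at 50.2 CPM in cluster 22 and 2.63 CPM in cluster 9. Whether their UMIs come from free RNA alone was not tested. Thinned in the same way, they had 0.334%, 0.352% and 0% of cells with Lcn2, 0.520%, 0.308% and 0% with Serpina3n and 0.669%, 0.286% and 0.0204% with Ptx3 in TBI+IL-25, TBI+PBS and sham, at median depths of 4731, 4746 and 3916 UMIs before thinning. The astrocyte-like shares of the injured libraries lay above these for Lcn2, Serpina3n and Ptx3. For Steap4, 0.424% and 0.986% of astrocyte-like cells stood against 0% and 0.0220% of microglia-like cells in TBI+IL-25 and TBI+PBS. For Cp, 0.0921% and 0.234% of astrocyte-like cells stood against 0.446% and 0.176% of microglia-like cells. Cp also differed between the clusters of microglia-like cells, which give no background for it. For the other genes too, these shares are a comparison and not a measured background.

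The cells that carried Lcn2 held it in widely different amounts. The median among them was 3 UMIs in TBI+IL-25 and 4 UMIs in TBI+PBS, and the highest cell had 81 and 172 UMIs. At least 5 UMIs were found in 89 TBI+IL-25 and 178 TBI+PBS cells, and at least 50 UMIs in 6 and 20 cells. Ptx3 in TBI+PBS had the highest count of any cell, 222 UMIs. In TBI+IL-25 Ptx3 was spread over more cells with a lower top, since 834 cells had 5 UMIs or more and the highest had 88, against 274 cells in TBI+PBS. These are UMIs as counted, without thinning. Astrocyte-like cells had a median depth of 2950 UMIs in TBI+IL-25 and 4326 UMIs in TBI+PBS. The part of depth in these tops was not tested.

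The 10% of cells with the most UMIs of Ptx3 held 71.5% of them in TBI+IL-25 and 94.4% in TBI+PBS. For Serpina3n the figures were 75.1% and 88.7%. The curves of TBI+IL-25 and TBI+PBS, drawn from unthinned cells, cross for both genes. At 20 UMIs or more, Ptx3 was found in 1.80% of TBI+IL-25 and 2.06% of TBI+PBS cells, and Serpina3n in 0.195% and 0.865%. Cluster 15 of these libraries had 1106 and 1075 CPM of Serpina3n, at median depths of 4265 and 7472 UMIs. The part of depth in the crossing was not tested. In sham no cell had more than 3 UMIs of Serpina3n or 2 of Ptx3.

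**Figure D4:**
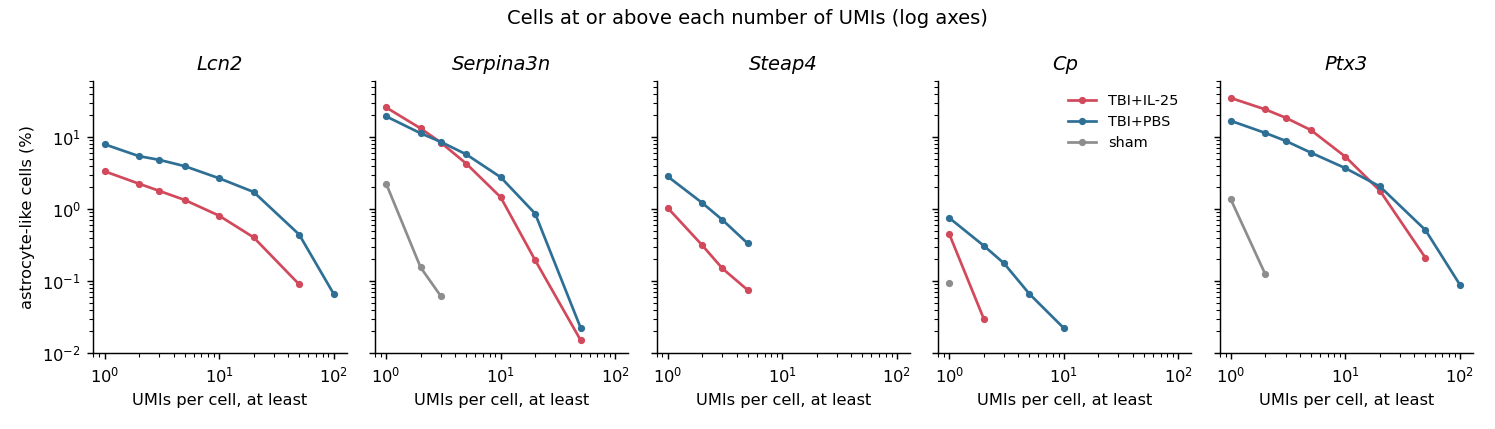
Percent of astrocyte-like cells at or above each number of UMIs of a gene, both axes on a log scale, by library. Cells were not thinned to a common depth, and those of TBI+IL-25 were shallower. Lcn2 is found in more TBI+PBS than TBI+IL-25 cells at every number of UMIs plotted, while for Ptx3 and Serpina3n TBI+IL-25 is higher at 1 UMI and TBI+PBS at 20 UMIs.

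Joint detection was examined on cells thinned to 1000 UMIs, by setting the share of cells with both genes beside the product of their shares. The ratio to that product cannot exceed the inverse of the larger share of a pair, so genes found in more cells have a lower ceiling. Lcn2 and Steap4 met most above that product, in 12 of 5430 cells in TBI+IL-25 (23.0 times the product) and 25 of 3853 in TBI+PBS (13.3 times). Of the cells with Steap4, 52.2% in TBI+IL-25 and 65.8% in TBI+PBS also carried Lcn2. Lcn2 and Serpina3n were found together in 1.29% and 2.78% of cells, 4.22 and 5.70 times the product.

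For pairs with Ptx3, the excess over the product was smaller in TBI+IL-25, where Ptx3 was found in 24.1% of cells, than in TBI+PBS, where it was found in 9.58%. The larger share also gives these pairs a lower ceiling in TBI+IL-25, so the ratios cannot rank co-expression between the libraries. Lcn2 and Ptx3 were found together in 0.921% of TBI+IL-25 and 2.60% of TBI+PBS cells, 1.69 and 5.47 times the product, with Pearson r over cells of 0.07 and 0.41. Serpina3n and Ptx3 stood at 1.70 and 3.55 times the product, with r of 0.20 and 0.34. Steap4 and Ptx3 stood at 2.16 and 5.50 times. Of the Ptx3 cells, 3.82% carried Lcn2 in TBI+IL-25 and 27.1% in TBI+PBS. In the other direction the libraries were closer, as Ptx3 was carried by 40.7% and 52.4% of the Lcn2 cells, 40.9% and 34.0% of the Serpina3n cells and 52.2% and 52.6% of the Steap4 cells. Cp could be paired at 2000 UMIs per cell, where it was found with Lcn2 in 4 TBI+IL-25 and 7 TBI+PBS cells (11.7 and 7.33 times the product), with Serpina3n in 8 and 10 cells (3.05 and 4.28 times) and with Ptx3 in 5 and 10 cells (1.18 and 4.66 times). These values describe cells that share a library and were not tested.

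**Figure D5:**
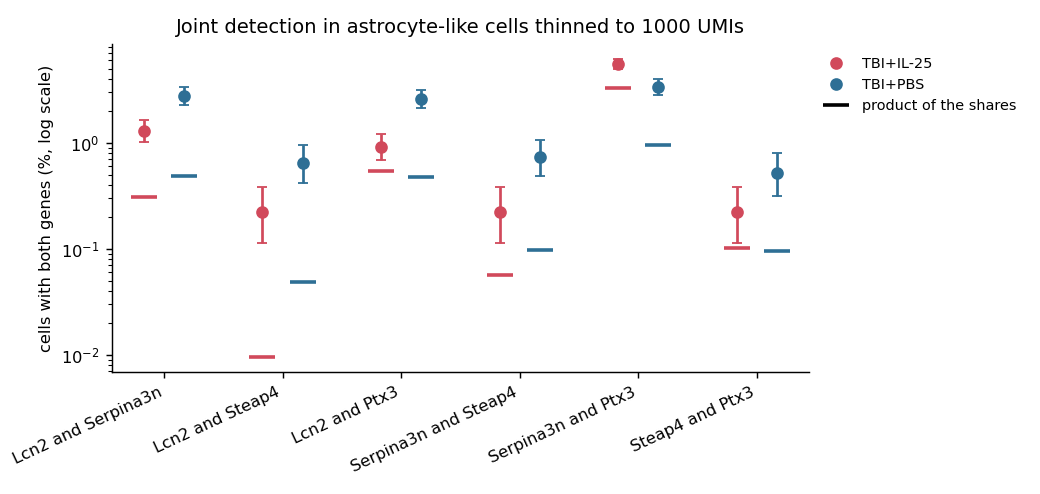
Percent of astrocyte-like cells, thinned to 1000 UMIs, with both genes of a pair (points, exact 95% binomial intervals) beside the product of the single shares (bars), on a log scale. Every pair lies above its product, and the gap for Lcn2 with Ptx3 is 1.69 times in TBI+IL-25 and 5.47 times in TBI+PBS. The ceiling of this gap differs, since Ptx3 is found in 24.1% of TBI+IL-25 and 9.58% of TBI+PBS cells.

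Within the cells of cluster 15 most pairs lay nearer to the product than over the class. The larger shares of cells there lower the ceiling of the ratio, so its fall cannot be read as weaker co-expression. In TBI+IL-25 Serpina3n and Ptx3 were found in 53.6% and 50.1% of these cells, against 13.5% and 24.1% over the class. In cluster 15 Lcn2 and Serpina3n stood at 1.20 times the product in TBI+IL-25 and 1.15 times in TBI+PBS, and Lcn2 and Ptx3 at 0.917 and 1.12 times. Serpina3n and Ptx3 stood at 1.19 and 1.03 times, with r of 0.22 and 0.12, beside 0.20 and 0.34 over the class. Lcn2 and Steap4 remained higher, at 2.67 and 1.81 times. Outside it the pairs still met: in cluster 1 of TBI+PBS, 9 of 1176 cells carried Lcn2 and Serpina3n, 10.9 times the product. In the largest cluster of TBI+IL-25, cluster 2, Serpina3n and Ptx3 stood at 1.08 times the product, and in that of TBI+PBS, cluster 10, at 2.14 times.

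At this depth 5.73% of TBI+IL-25, 3.84% of TBI+PBS and 0 of 2783 sham cells carried 2 of the 5 genes, while 0.737%, 1.76% and again 0 carried 3. A single TBI+PBS cell carried all 5. None of the genes was found in 67.1% of TBI+IL-25, 82.7% of TBI+PBS and 99% of sham cells.

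The genes most like each of them differed between the 5. Over 18 profiles of a class in a library with at least 50 cells, among 15244 genes, the highest Pearson r of log2(CPM + 1) was 0.77 for Lcn2 (with Cpne8), 0.91 for Serpina3n (Kazn), 0.95 for Steap4 (Lalba), 0.92 for Cp (Lrg1, which encodes another acute-phase glycoprotein) and 0.89 for Ptx3 (Bdnf, which encodes a neurotrophin). Among themselves, Lcn2 and Steap4 reached 0.72, Ptx3 and Steap4 0.56 and Lcn2 and Ptx3 0.19, while Cp and Serpina3n stood at -0.093. These profiles share libraries and depth, and the values are descriptions. The minimum left out all fibroblast-like, ependymal-like and neutrophil-like profiles, and clusters without a class name were not used. The values of Cp, also with Serpina3n, thus leave out the groups with most Cp. Among the profiles used, Cp was highest in endothelial-like cells of TBI+PBS (74.8 CPM), followed by monocyte/macrophage-like cells of TBI+PBS (11.2 CPM).

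Over single astrocyte-like cells of TBI+PBS, the nearest genes were Tgm1 for Lcn2 (r 0.50), A2m for Serpina3n (0.52), Lcn2 for Steap4 (0.47) and Tm4sf1 for Ptx3 (0.58). In TBI+IL-25 they were Tm4sf1 for Lcn2 (0.31), A2m for Serpina3n (0.33), Lcn2 for Steap4 (0.33) and Cd44 for Ptx3 (0.50). Steap4, found in 1.04% of these cells, fell below the minimum, and its r of 0.33 with Lcn2 was above that of Tm4sf1. A2m, which encodes the protease inhibitor alpha-2-macroglobulin, was thus nearest to Serpina3n in both libraries, and Lcn2 to Steap4. None of the genes compared reached an r above 0.17 with Cp in these cells.

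Many signalling genes known to act upstream of the acute-phase response were higher in TBI+PBS than in sham astrocyte-like cells. Of 17 measured genes of the interleukin-6 family and STAT3, 10 were higher past 2-fold and 0 lower, with a median log2 ratio of 2.11, beside -0.032 and 6.78% higher over all genes. Socs3, a feedback inhibitor that STAT3 induces, had 823 CPM in TBI+IL-25, 296 CPM in TBI+PBS and 4.57 CPM in sham, and Bcl3 had 31.0, 14.8 and 0.0703 CPM. Cntfr, the ciliary neurotrophic factor receptor, was at 167, 249 and 368 CPM. Of 18 NF-kB, interleukin-1 and tumour necrosis factor genes, 10 were higher and 0 lower (median 1.02). Of these, Il1r1, the interleukin-1 receptor, had 37.3, 23.1 and 3.79 CPM, Il1b 2.27, 4.26 and 0.141 CPM, and Nfkb1 80.9, 67.0 and 52.4 CPM. Of 4 C/EBP factors 3 were higher (median 1.91), with Cebpb at 391, 239 and 19.2 CPM, Cebpd at 849, 398 and 67.8 CPM and Cebpa at 44.9, 34.0 and 24.9 CPM.

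Between TBI+IL-25 and TBI+PBS the medians of these lists did not go the way of Lcn2. In the interleukin-6 and STAT3 list 5 of 18 measured genes were higher past 2-fold and 1 lower, with a median log2 ratio of 0.55, against -0.20 over all genes. The shares over all genes were 3.70% higher and 10.4% lower. Socs3 was 2.78-fold of TBI+PBS and Cebpd 2.13-fold, in the library in which Lcn2 was 0.382-fold. In the NF-kB list 1 of 19 was higher, near the share over all genes, and 0 lower (median 0.19). Of the C/EBP factors 1 of 4 was higher (median 0.56).

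Pan-reactive astrocyte genes were higher in TBI+PBS than in sham in 20 of 20 cases, with a median log2 ratio of 4.65. The shares over all genes were 6.78% higher and 4.38% lower. Tm4sf1, a tetraspanin-like membrane protein, had 768 CPM in TBI+IL-25, 508 CPM in TBI+PBS and 0.211 CPM in sham, and Hspb1, a small heat shock protein, had 599, 341 and 0.422 CPM. Cd14, a co-receptor for bacterial lipopolysaccharide, had 26.6, 30.1 and 8.64 CPM. None of 14 homeostatic astrocyte genes passed 2-fold in either direction (median -0.029), Kcnj10 being at 172, 259 and 170 CPM, Atp1b2 at 1589, 1754 and 1466 CPM and Gja1 at 1079, 1025 and 1607 CPM. Of the 16 immediate early genes 12 were higher (2.24), Ier3 with 349, 82.7 and 4.50 CPM, Nr4a1 with 40.4, 38.3 and 2.88 CPM and Fosb, which was not higher, with 25.8, 14.4 and 17.5 CPM. Between TBI+IL-25 and TBI+PBS 6 of 20 pan-reactive genes, 0 of 14 homeostatic genes and 4 of 16 immediate early genes were higher past 2-fold, and 0 were lower. For that comparison the shares over all genes were 3.70% higher and 10.4% lower.

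Genes of other acute-phase plasma proteins had no common direction. Of 20 listed, 7 reached the count minimum, and between TBI+PBS and sham 1 was higher past 2-fold and 1 lower, with a median log2 ratio of 0.15. The shares over all genes were 6.78% higher and 4.38% lower. A2m had 116 CPM in TBI+IL-25, 97.8 CPM in TBI+PBS and 7.59 CPM in sham. Itih3, a chain of the inter-alpha-trypsin inhibitor family, had 176, 382 and 345 CPM. Saa3, a serum amyloid A gene, had 0.650, 1.05 and 2.60 CPM, from 14, 22 and 37 UMIs.

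Relatives and partners of the 5 genes gave mixed values. They stand beside 6.78% of all genes higher and 4.38% lower in TBI+PBS than in sham past 2-fold. Of 5 measured serpins 2 were higher in TBI+PBS than in sham (median log2 ratio 0.98), among them the complement C1 inhibitor Serping1, with 7.70 CPM in TBI+IL-25, 14.7 CPM in TBI+PBS and 1.97 CPM in sham. Serpine2 had 624, 884 and 905 CPM. Of 3 other STEAP genes (median -0.20) only Steap1 passed 2-fold, with 10.7, 5.22 and 1.12 CPM, and Steap3 had 23.7, 28.3 and 37.2 CPM. Of 14 iron-handling genes 3 were higher and 1 lower (0.27): the haem oxygenase Hmox1 had 723, 382 and 13.1 CPM, the metal importer Slc39a14 had 309, 160 and 30.3 CPM, and Slc40a1, the iron exporter ferroportin, had 2.97, 2.44 and 4.92 CPM. Trf, transferrin, was the other higher gene.

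Of 4 other pentraxins and collectins 3 were higher (median 2.21), among them the neuronal pentraxins Nptx2, with 6.40, 12.4 and 1.19 CPM, and Nptx1, with 5.80, 2.73 and 0.141 CPM, whereas Colec12 had 3.62, 8.53 and 8.78 CPM. Slc22a17, described as a receptor for lipocalin-2, had 158, 175 and 250 CPM and passed 2-fold in no comparison. Between TBI+IL-25 and TBI+PBS, 1 of 6 serpins, 1 of 3 STEAP genes (Steap1), 0 of 14 iron-handling genes and 1 of 4 pentraxins and collectins (Nptx1) were higher past 2-fold. The lower ones were 1 of 7 acute-phase plasma proteins (Itih3) and 1 of 4 pentraxins and collectins (Colec12). These small counts stand beside 3.70% higher and 10.4% lower over all genes.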

How the data were processed

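RNA was counted in single cells with a 10x Chromium 3′ kit after enzymatic digestion and dead cell removal, per the labels' protocols. The deposited matrices hold raw UMI counts. These counts were made with Cell Ranger 7.2.0 for TBI+IL-25 and 7.1.0 for TBI+PBS and sham, per the file headers. Cell Ranger 7.2.0, the build GRCm39, Seurat 4.4.0 and bcl2fastq 5.0.1 are listed in the submitters' processing notes. How barcodes were selected is not given in the sources used here, and the lowest total was 500 or 501 UMIs. The labels' 8000 expected cells stand beside 14222, 10643 and 8939 barcodes in TBI+IL-25, TBI+PBS and sham.

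Cells were dropped below 500 UMIs or 300 genes or above 20% mitochondrial UMIs, which removed 55, 43 and 18. Scrublet in scanpy 1.11.5 removed 652, 291 and 229 doublets (4.60%, 2.75% and 2.57%) at a score of 0.2, set after the automatic threshold marked 1 sham cell. Clustering used 2000 variable genes without the 5 members, 30 principal components, 15 neighbours and Leiden resolution 1 (leidenalg 0.10.2, python-igraph 0.11.9), without integration. Clusters were named from 22 marker lists, where at least 3 markers were present in 20% of cells at 2 times the median cluster level and the top 10 genes, ranked with 50 CPM added, held no more markers of another class. The 50 CPM and the joint count of pericyte and smooth muscle markers in that check were set after the data were seen. Names are rebuilt here and are not the authors' own.

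CPM has exact Poisson intervals, shares Clopper-Pearson intervals and ratios exact conditional binomial intervals, all at 95%, and cover counting error alone. For a count of 0 the text gives a limit of 3 counts per library and class, and "at least" uses that limit with the other count taken as exact. Fewer cells of a type and less RNA per cell are kept apart by CPM within a class, but not in values over all cells. No p-value is given. Genes named beside the 5 follow a fixed rule: from each of 12 lists the 2 with the highest and the 1 with the lowest TBI+PBS over sham ratio by the interval bound nearest to 1, and the genes of highest Pearson r. Trf and genes that lead clusters were named in addition. The values of 1 gene that this rule names are not reported here. The members and lists were chosen with earlier results of these data known. Scripts were tested on simulated data, in Python 3.11.15 with pandas 2.3.3, NumPy 2.4.6, Matplotlib 3.10.9, SciPy 1.17.1 and scikit-learn 1.9.0. Promoter coordinates are of GRCm38.p6 and were not used with the counts.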

Additional observations from a re-analysis of the deposited data

Results flagged for a closer look

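Among named classes with at least 20 cells in both libraries compared, a cell class and the astrocyte-like class differed in opposite directions between TBI+IL-25 and TBI+PBS, by their counting intervals, in 3 cases. The differences themselves were not tested, and each class has 1 library per group. Lcn2 in TBI+IL-25 was 7.69-fold of TBI+PBS in fibroblast-like cells (5.07 to 12.0), against 0.382-fold in astrocyte-like cells, and rests on 25 and 23 cells. Serpina3n was 0.135-fold in fibroblast-like cells (0.00317 to 0.897), against 1.15-fold in astrocyte-like cells, and rests on 1 and 13 UMIs. Cp was 1.81-fold in microglia-like cells (1.36 to 2.42), against 0.437-fold in astrocyte-like cells, and rests on 151 and 75 UMIs there. Lcn2 in neutrophil-like cells, a class of 45 TBI+IL-25 and 12 TBI+PBS cells that falls under this minimum, was also higher, at 4.31-fold (2.56 to 7.84).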

How the results depend on the processing

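With 1 library per group, no replicate could be left out. No paired analysis was possible because each group has a single library. Across the alternatives tried for the comparisons TBI+PBS over sham and TBI+IL-25 over TBI+PBS, 78 values lay within the counting interval, 39 outside it and 1 turned its direction. The alternatives on shallow clusters, on shared clusters and on cluster 15 were chosen after seeing the data, and no cluster with astrocyte markers stayed unnamed, so adding such clusters gave no value. Log2 ratios follow, and where an alternative moved a value the cause was not tested. With the class of each cell taken from its own markers, Lcn2 and Ptx3 for TBI+IL-25 over TBI+PBS were -1.72 and 0.99, and Ptx3 for TBI+PBS over sham was 7.11. Median-of-ratios size factors gave -1.15 for Lcn2, 0.44 for Serpina3n and 1.19 for Ptx3 in TBI+IL-25 over TBI+PBS. Cells weighed equally gave -1.66 for Lcn2 and 0.32 for Serpina3n there, and 4.74 for Serpina3n in TBI+PBS over sham. Without cells with 10 or more microglia marker counts, Serpina3n was 0.26 and Ptx3 1.06 in TBI+IL-25 over TBI+PBS, and without shallow clusters Lcn2 was -1.26 and Ptx3 1.01. Shared clusters alone gave, for TBI+PBS over sham, at least 5.91 for Lcn2, 4.13 for Serpina3n, at least 1.69 for Steap4, 1.03 for Cp and 1.07 for Ptx3. For TBI+IL-25 over TBI+PBS they gave -2.84, -1.03 (Serpina3n, reversed), -2.71, -2.05 and 2.80 in the same order. Without cluster 15, TBI+PBS over sham was at least 8.09, 4.06, at least 3.65, 2.28 and 4.87 in that order. TBI+IL-25 over TBI+PBS was then -1.55 for Lcn2, 0.67 for Serpina3n, -0.52 for Cp and 2.38 for Ptx3. Values given as at least rest on 0 sham UMIs of the gene, and such a limit is lower where sham cells hold fewer UMIs in all. Counts of genes past 2-fold depend on the UMI minimum: at 200 UMIs, at 50 UMIs and at 1 UMI, 608, 973 and 5448 were higher and 262, 628 and 4110 lower for TBI+PBS over sham, and 317, 536 and 4306 higher and 747, 1508 and 6204 lower for TBI+IL-25 over TBI+PBS. Depth limits Cp and Steap4 in astrocyte-like cells, which rest on 32 to 265 UMIs in injured libraries.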
